A study of Mus musculus with 6 samples.

Results

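Kit and 8 genes whose products act next to it were followed in mouse mast cells labelled uLN or mLN. The 9 genes, Kit, Sh2b2, Sh2b3, Cbl, Cblb, Stat5a, Stat5b, Grb2 and Sos1, were chosen by name and each matched 1 row of the 17890 genes in the table. RNA-seq was done on 6 libraries. Of these, 3 are titled as mast cells uLN and 3 as mast cells mLN. The short names are read here as uninvolved lymph nodes and nodes holding tumour metastases. The sample titles do not spell this out, nor whether the cells were taken from such nodes. The labels give no strain, age, tumour or agent for either group, and do not say how the cells were isolated, so it is not known whether Kit protein was used to pick them. Replicates are not stated to be separate animals, so the p-values rest on library-to-library spread, part or all of which may be technical.

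Kit is the receptor tyrosine kinase for stem cell factor, the main survival and growth signal of mast cells. When ligand binds, the receptor pairs up, phosphorylates itself and draws in adaptor proteins through their SH2 domains. Grb2 brings in Sos1, which loads Ras with GTP, while STAT5 proteins carry the signal to the nucleus. Sh2b2 (APS) and Sh2b3 (Lnk) are related adaptors, and Cbl and Cblb are ubiquitin ligases that tag active receptors for removal from the surface. Sh2b3 and the Cbl proteins are known mainly as brakes on this signalling.

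Library totals ran from 17643916 to 17799420 counts. Of 14 mast cell markers 13 were in the table, Kit among them, and 4 were higher and 7, with Kit, lower. Their summed level was 44100 to 46100 CPM (counts scaled to library size after TMM normalisation) in uLN and 43100 to 45800 CPM in mLN. These sums overlap only with Kit counted, which had a mean of 7756 CPM in uLN and 3139 CPM in mLN. Leaving Kit out, every mLN sum lies above every uLN sum. Markers of T cells, B cells and neutrophils were low, with summed levels of at most 5.22, 0.723 and 19.1 CPM. Of 10 tested macrophage and dendritic cell markers 3 rose and 7 fell, with a sum of 346 to 490 CPM in uLN and 294 to 331 CPM in mLN that Gpnmb dominates. Gpnmb fell from a mean of 251 to 71.6 CPM, while Cd68 rose from 24.9 to 90.2 CPM and Adgre1 from 26.8 to 61.1 CPM. Keratinocyte and fibroblast markers stood out in mLN replicate 1, at 158 and 112 CPM against 35.1 and 25.8 CPM or less in the other 2 mLN libraries. The third mLN library differed from the other 2 in many genes, with a median chi-square per gene of 2.58 and 2.48 against 0.736 between mLN replicates 1 and 2. The values without either library are given where they matter.

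Kit fell in mLN, and the genes for its ubiquitin ligases, for Sos1 and for the adaptor Sh2b2 rose, while Grb2 and Sh2b3 were slightly lower and neither Stat5 gene was called. By edgeR's quasi-likelihood test at an adjusted p under 0.05, 4 members rose, 3 fell and 2 were not called. Across all 12706 genes tested 67.4% were called, 33.2% higher and 34.2% lower, so 7 of 9 is near the background and the size of each change says more than its call. A stricter test asked for a change larger than 1.5-fold. It called Sh2b2 and Cbl higher and Kit lower, 3 of 9, where 21.0% of all tested genes were called, 11.8% higher and 9.20% lower. The groups did not overlap for 8 of 9 members, as for 72.9% of all tested genes. The median log2 fold change of the members was 0.112, against -0.006 over all genes.

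**Figure D1:**
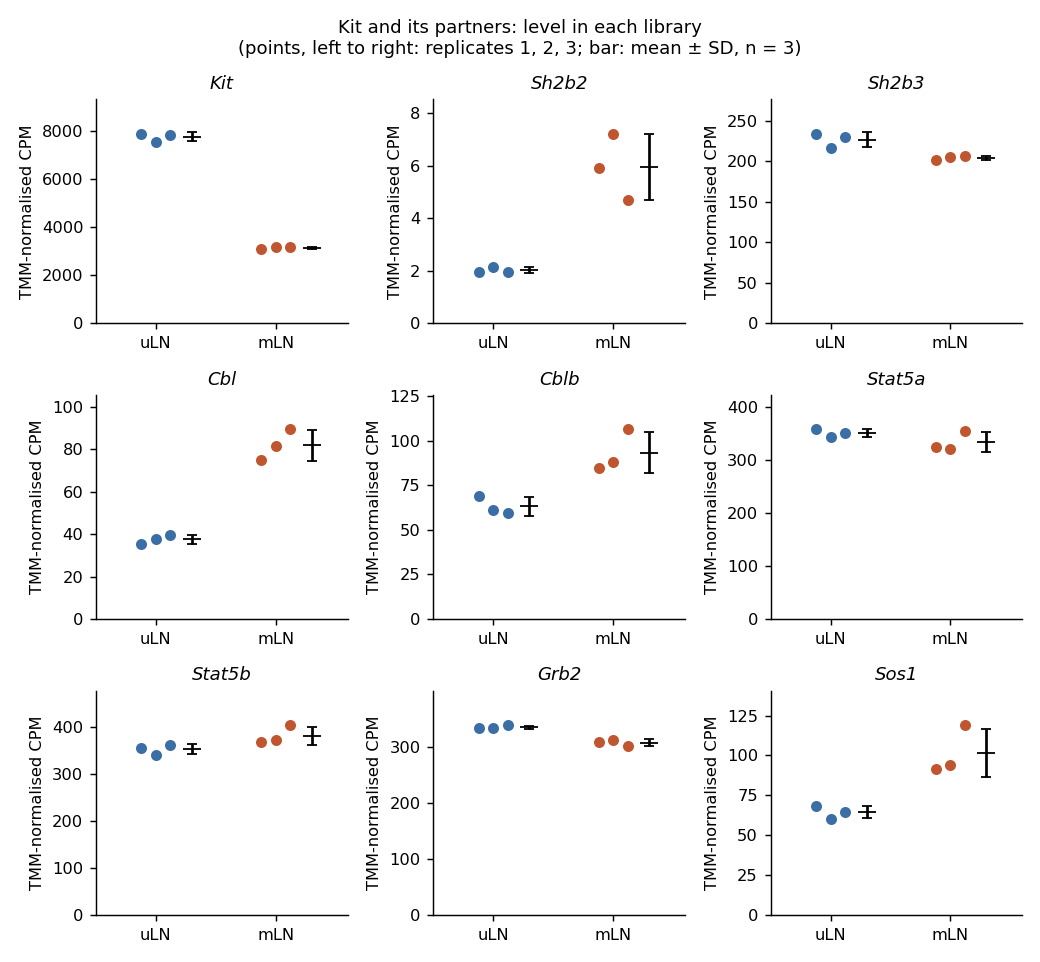
TMM-normalised CPM (vertical axis, from 0) of the 9 genes in each uLN (blue) and mLN (orange) library, with mean ± SD of 3 libraries. Kit sits between 7538 and 7891 CPM in uLN and between 3086 and 3173 CPM in mLN, and Stat5a is the gene whose groups overlap.

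The receptor had 7891, 7538 and 7839 CPM in uLN replicates 1, 2 and 3, and 3086, 3173 and 3158 CPM in the mLN replicates. All 3 mLN libraries lay far below all uLN libraries, and the libraries of a group lay close together. The mean went from 7756 ± 191 to 3139 ± 46.6 CPM (SD, n = 3), a 2.47-fold fall with a log2 fold change of -1.31 ± 0.04 (SE, adjusted p = 3.33e-09). Kit (gene ID 16590) lies on the forward strand of chromosome 5, from 75574987 to 75656722 in GRCm38, and its longest coding transcript has 21 exons. Kit took 0.755% to 0.778% of all counts of a uLN library and ranked 4 by count in each, and 0.312% to 0.321% of an mLN library, where it ranked 12 or 13. It remained an abundant transcript. Only 435 of the 12706 tested genes fell by more, and among the 81 with an average of at least 1000 CPM only 4 did. In bulk libraries, fewer cells carrying a transcript and less transcript per cell cannot be told apart.

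The 4 basophil markers summed to 2840 to 2950 CPM in uLN and 3050 to 3200 CPM in mLN, with no overlap, and most of that is Gata2, which is also a mast cell marker. Prss34 and Cd200r3 rose (log2 fold changes of 1.52 and 0.61), and Mcpt8, the defining basophil protease, had 12 to 26 reads in every library and was not called. Their part in the fall of Kit was not tested. Markers of other cells that use Kit were checked. The 6 melanocyte markers summed to 5.56 to 7.22 CPM in uLN and 7.34 to 16.2 CPM in mLN, the highest again in mLN replicate 1. Of 5 progenitor markers, Cd34 and Spi1, which mast cells also express, made up nearly all of a sum of 491 to 524 CPM in uLN and 526 to 559 CPM in mLN, while Flt3, Mpo and Elane had 0 to 6 reads in every library. Without mLN replicate 1 the log2 fold change of Kit was -1.29, and without mLN replicate 3 it was -1.31. Kitl, which encodes the ligand stem cell factor, had 0 to 2 reads in every library of both groups and was not tested.

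The 250 bases before a transcript start of Kit that RefSeq lists are shown beside those of Cbl and Sh2b2, since these members had the largest fall and the largest rises. The sequences are from RefSeq on GRCm38.p6, 5′ to 3′ on the strand of the gene. Kit is chr5:75574737-75574986 on the forward strand, Cbl is chr9:44234047-44234296 and Sh2b2 is chr5:136244941-136245190, both on the reverse strand. The listed start is the outer end of the gene for Kit, but lies 213 bases inside it for Cbl and 1655 bases inside it for Sh2b2, whose whole window is within the gene. Capitals mark GGGCGG on either strand, the GC box bound by Sp1-type factors.
Kit: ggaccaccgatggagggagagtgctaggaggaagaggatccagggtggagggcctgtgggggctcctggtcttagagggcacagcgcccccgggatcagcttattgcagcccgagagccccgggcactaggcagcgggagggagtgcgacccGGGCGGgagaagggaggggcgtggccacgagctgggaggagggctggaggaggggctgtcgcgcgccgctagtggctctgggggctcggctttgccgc
Cbl: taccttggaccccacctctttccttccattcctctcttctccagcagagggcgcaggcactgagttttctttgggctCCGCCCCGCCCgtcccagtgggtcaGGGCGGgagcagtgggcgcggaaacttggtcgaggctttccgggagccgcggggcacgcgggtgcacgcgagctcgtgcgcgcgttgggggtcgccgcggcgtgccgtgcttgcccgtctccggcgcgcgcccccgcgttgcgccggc
Sh2b2: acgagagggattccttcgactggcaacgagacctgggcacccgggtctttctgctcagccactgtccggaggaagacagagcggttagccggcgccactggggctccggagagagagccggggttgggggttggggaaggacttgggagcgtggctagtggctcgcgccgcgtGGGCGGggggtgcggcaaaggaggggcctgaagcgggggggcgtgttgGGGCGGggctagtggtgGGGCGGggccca
The Kit window holds 1 match, 98 to 93 bases before the start, and the Cbl and Sh2b2 windows hold 3 each, of which 2 in Cbl overlap by a base. Such a match is in 32.7% of 32817 promoter windows of this length. Also searched on both strands were GATAA (GATA factors), CANNTG (E-box factors such as Mitf and Tal1) and TTCNNNGAA (STAT factors), which 22.6%, 66.2% and 7.01% of all windows hold. These windows of Kit, Cbl and Sh2b2 have no match to them, which says only that these letters are not in these 250 bases.

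The ubiquitin ligases rose together. Cbl, the main ligase recruited to active Kit, had 35.4, 37.8 and 39.4 CPM in uLN and 74.98, 81.4 and 89.3 CPM in mLN. Every mLN library was above every uLN library. The 2.18-fold rise has a log2 fold change of 1.13 ± 0.07 (SE, adjusted p = 4.03e-07), and 1040 of all tested genes rose by more. Cblb, its close relative, had 69.3, 61.1 and 59.5 CPM in uLN and 84.9, 88.4 and 106 CPM in mLN, the highest in replicate 3. Its groups did not overlap, and it rose 1.47-fold (log2 fold change 0.56 ± 0.09 SE, adjusted p = 0.000254), but it did not pass the 1.5-fold test (adjusted p = 0.946). Without mLN replicate 3 its log2 fold change was 0.46 and still called. With the biological coefficient of variation set to 0.2, where these libraries show 6.49%, the adjusted p of Cblb was 0.0581.

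In reads, Cblb stood at 1.96, 1.62 and 1.51 per Cbl read in uLN and at 1.13, 1.09 and 1.19 in mLN. All 3 mLN ratios were lower, a log2 difference of -0.57 ± 0.12 (SE, n = 3 against 3). The exact two-sided permutation test over libraries gave p = 0.1, the smallest that 3 against 3 allows, for this and each of the 8 ratios computed (adjusted p = 0.1). A ratio within a library does not depend on scaling between libraries. Cbl (gene ID 12402) lies on chromosome 9 from 44142976 to 44234259 and Cblb (208650) on chromosome 16 from 52031230 to 52208047.

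The related adaptors moved apart. Sh2b2 had 1.95, 2.15 and 1.95 CPM in uLN and 5.92, 7.23 and 4.71 CPM in mLN, where it was lowest in replicate 3. It was the least abundant member, with 34.0, 38.5 and 33.8 reads in the uLN libraries and 108, 130 and 82.5 in mLN. Its groups did not overlap, and the 2.95-fold rise (log2 fold change 1.56 ± 0.20 SE, adjusted p = 5.68e-05) passed the 1.5-fold test (adjusted p = 0.000913). Sh2b3 was far more abundant, at 234, 217 and 230 CPM in uLN and 202, 205 and 206 CPM in mLN. It was 1.11-fold lower with no overlap between groups (log2 fold change -0.15 ± 0.04 SE, adjusted p = 0.0121). That call was lost without uLN replicate 1 (adjusted p = 0.0593) and with the coefficient of variation at 0.2 (adjusted p = 0.680).

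For each Sh2b3 read there were 0.00832, 0.0100 and 0.00845 Sh2b2 reads in uLN and 0.0293, 0.0352 and 0.0229 in mLN. The ratio was thus 3.23 times higher in mLN, with no overlap, yet Sh2b2 stayed far the rarer adaptor. Both adaptor genes are on chromosome 5 with Kit, Sh2b2 (gene ID 23921) from 136218147 to 136246595 and Sh2b3 (16923) from 121815481 to 121837645.

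**Figure D2:**
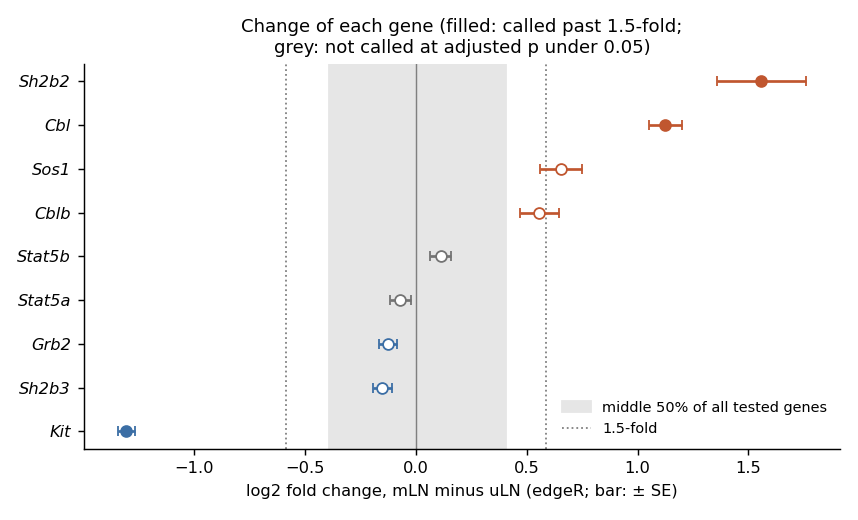
Log2 fold change of mLN over uLN (horizontal axis, bars ± SE) for the 9 genes, with filled points for those called past 1.5-fold and grey for those not called. Kit at -1.31 and Cblb, Sos1, Cbl and Sh2b2 at 0.56, 0.65, 1.13 and 1.56 lie outside the middle 50% of all tested genes, which runs from -0.393 to 0.407.

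Of the members that link Kit to Ras, Sos1 changed more than Grb2. Grb2, the adaptor, had 334, 333 and 338 CPM in uLN and 308, 313 and 301 CPM in mLN. The groups did not overlap, but the fall was only 1.09-fold (log2 fold change -0.13 ± 0.04 SE, adjusted p = 0.0163), and with the coefficient of variation at 0.2 the adjusted p was 0.738. Sos1, an exchange factor that Grb2 carries, had 68.3, 60.4 and 64.8 CPM in uLN and 91.4, 94.2 and 119 CPM in mLN. The third mLN library was the highest, and all 3 lay above uLN. The 1.57-fold rise (log2 fold change 0.65 ± 0.10 SE, adjusted p = 0.000133) did not pass the 1.5-fold test (adjusted p = 0.330) and was 0.53 on the log2 scale without mLN replicate 3. In reads, Sos1 stood at 0.205, 0.181 and 0.192 per Grb2 read in uLN and at 0.297, 0.301 and 0.395 in mLN. The ratio was 1.71 times higher with no overlap. Sos2, the other Sos exchange factor and not a member, went the opposite way. It fell from a mean of 86.8 CPM in uLN to 71.2 CPM in mLN (log2 fold change -0.28 ± 0.06 SE, adjusted p = 0.001). With the coefficient of variation at 0.2, the Ras and ERK list below, which holds Sos2, had 3 genes lower in place of 10. Grb2 (gene ID 14784) is on chromosome 11 from 115644045 to 115708597 and Sos1 (20662) on chromosome 17 from 80393752 to 80480453.

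The STAT5 genes differed between groups by at most 1.08-fold. Stat5a had 357, 342 and 351 CPM in uLN and 325, 321 and 355 CPM in mLN. Its groups overlapped because mLN replicate 3 lay within the uLN range, and the log2 fold change of -0.07 ± 0.05 (SE) was not called (adjusted p = 0.229). Without that library it was -0.11 and called (adjusted p = 0.00434). Stat5b had 355, 340 and 362 CPM in uLN and 368, 372 and 403 CPM in mLN, again highest in replicate 3. Its groups did not overlap, but the log2 fold change of 0.11 ± 0.05 (SE) missed the threshold (adjusted p = 0.0646). Stat5b was called without mLN replicate 3 (adjusted p = 0.0491), with RLE scaling (0.0439), with upper-quartile scaling (0.0200) and with library totals only (0.00963).

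Stat5a and Stat5b encode near-identical proteins, and their deposited counts were not whole in any library, so some reads may have been shared between the pair and their split is uncertain. Summed, they had 712, 683 and 713 CPM in uLN and 693, 693 and 758 CPM in mLN, a log2 fold change of 0.02 ± 0.05 (SE, adjusted p = 0.673). The summed counts were not whole either, so summing need not remove all of this uncertainty. As deposited, Stat5b stood at 0.994, 0.994 and 1.03 reads per Stat5a read in uLN and at 1.13, 1.16 and 1.14 in mLN. The change of balance is small, 1.13 times, but wider than the spread within either group. The genes lie back to back on chromosome 11, Stat5b (gene ID 20851) from 100780731 to 100859004 on the reverse strand and Stat5a (20850) from 100859351 to 100885169 on the forward strand, with 346 bases between them. The exons of Stat5a share 72 bases with Stat3 on the opposite strand in the GENCODE basic set, 1.81% of their length, and no other member overlaps the exons of another gene there.

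**Figure D3:**
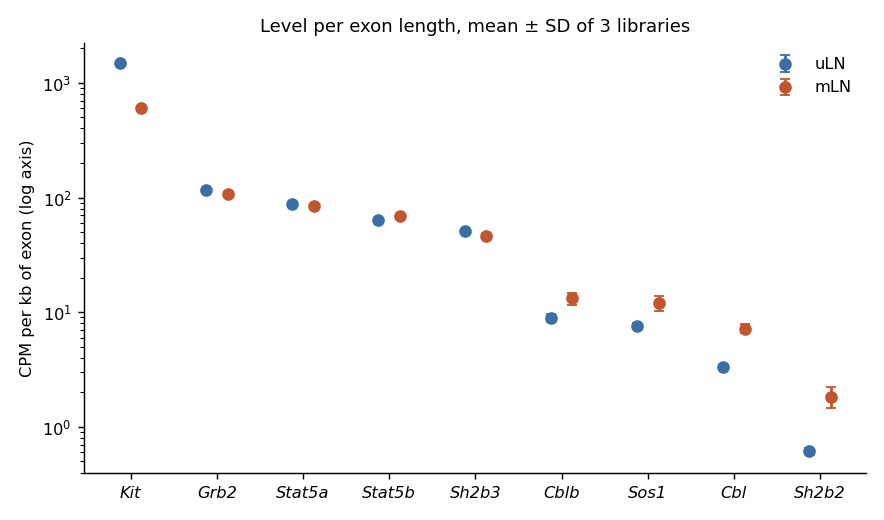
Mean CPM per kb of exon (vertical log axis, bars SD of 3 libraries) in uLN (blue) and mLN (orange). The order from Kit down to Sh2b2 is the same in both groups, while Kit moves toward the others.

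Levels of different genes were compared per kb of exon, using the union of coding transcripts in GENCODE. Kit led at 1476 ± 36.3 CPM per kb in uLN and 598 ± 8.88 in mLN (SD, n = 3). Grb2 followed at 116 and 106, Stat5a at 88.2 and 84.1, Stat5b at 63.6 and 68.8 and Sh2b3 at 51.0 and 46.0 CPM per kb in uLN and mLN. Far below came Cblb at 8.97 and 13.2, Sos1 at 7.65 and 12.03, Cbl at 3.30 and 7.20 and Sh2b2 at 0.623 and 1.84 CPM per kb. The adaptor and STAT transcripts thus formed a middle tier, and the ligases, Sos1 and Sh2b2 a low one in which every gene was higher in mLN. The order was the same in both groups. Neighbours in it did not overlap in range except Cblb and Sos1 in mLN, at 12.03 to 15.1 and 10.8 to 14.1 CPM per kb.

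The distance between Kit and its partners shrank. Per kb, Kit exceeded Cbl 448-fold in uLN and 83.0-fold in mLN, Cblb 165-fold and 45.2-fold, and Grb2 12.7-fold and 5.61-fold. Counted within each library, there were 4.48, 5.01 and 5.03 Cbl reads per 1000 Kit reads in uLN and 24.3, 25.7 and 28.3 in mLN. That is 5.39 times more Cbl per Kit transcript read, the product of a falling receptor and a rising ligase. Sh2b2 had 0.247, 0.288 and 0.248 reads per 1000 Kit reads in uLN and 1.92, 2.28 and 1.499 in mLN, 7.19 times more. For Grb2 (42.3, 44.2 and 43.1 against 99.8, 98.6 and 95.3) and Sh2b3 (29.7, 28.8 and 29.3 against 65.3, 64.8 and 65.3) the ratio was 2.27 and 2.23 times higher, less than the 2.47-fold fall of Kit alone. No group overlapped in these 4 ratios, at the exact permutation limit given above.

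**Figure D4:**
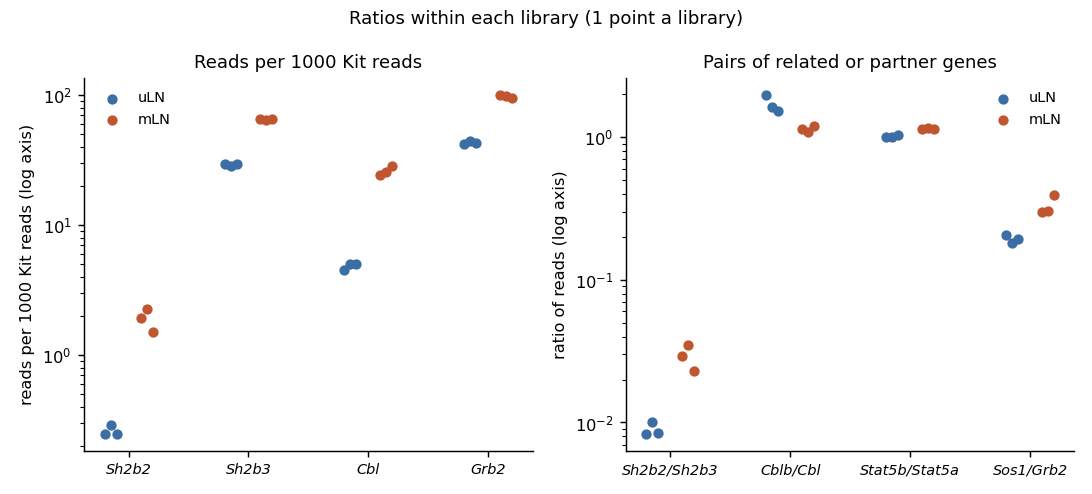
Reads of each partner per 1000 Kit reads (left) and ratios of reads between partner genes (right), both on log axes, 1 point a library. The uLN (blue) and mLN (orange) libraries are apart in each ratio, with Cbl at 4.48 to 5.03 and 24.3 to 28.3 reads per 1000 Kit reads.

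Around these members, 9 lists of other Kit pathway genes were counted. Of 148 genes listed 147 were in the table and 134 were tested, of which 52 rose and 47 fell. The other 35 stayed under the threshold. The median log2 fold change was 0.028 and 67.4% of all genes were called, so these counts are near the shares of 33.2% higher and 34.2% lower over all genes. Past 1.5-fold, 13 were higher and 15 lower, beside 11.8% and 9.20% of all tested genes. Setting the coefficient of variation to 0.2 left 25 higher and 24 lower. Up to 4 called genes of each list were named by adjusted p. Of these, Tal1, Src, Grap2, Nck2, Ksr1, Inpp5d, Hgs and Sh3gl1 lost their call there (adjusted p from 0.0568 to 0.197). In the list of related and other receptors, 3 were then higher in place of 6 and 6 lower in place of 7, so some receptors named below lost their call too.

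Among transcription factors of the Kit gene, 3 of 13 tested rose and 5 fell. Mitf, which drives mast cell genes including Kit, fell by 0.58 on the log2 scale from 229 ± 3.60 to 153 ± 8.65 CPM (SD, n = 3). Tal1 and Myb fell 1.41-fold and 1.56-fold, and Erg, an ETS factor, rose 1.89-fold. Gata2, the GATA factor of mast cells, was at 2552 CPM in uLN and 2637 in mLN and not called (log2 fold change 0.05, adjusted p = 0.316). Of kinases at the receptor, 4 of 12 rose and 5 fell. The Src family kinases Fyn and Src rose 1.53-fold and 1.46-fold, whereas Btk and Fes fell 1.62-fold and 1.69-fold.

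Of other adaptors 9 of 16 rose and 3 fell, with a median of 0.194, but none passed the 1.5-fold test. Dok1, an adaptor that restrains Ras, rose 1.51-fold, Nck2 1.44-fold and Grap2 1.32-fold, while Vav1 fell 1.54-fold. In the Ras and ERK arm 5 of 18 rose and 10 fell. Rasgrp4, a Ras exchange factor typical of mast cells, fell 2.01-fold from 642 ± 4.25 to 320 ± 14.1 CPM (SD, n = 3). Rasgrp1 of the same family rose 2.09-fold from a lower level of 21.2 ± 1.43 CPM, and Map2k1, which encodes the MEK kinase that activates ERK, rose 1.93-fold. The scaffold Ksr1 fell 1.47-fold.

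In the PI3K and phospholipase arm 5 of 19 rose, 4 fell and 10 were not called. Pik3cb, a catalytic subunit, rose 2.44-fold and the regulatory subunit Pik3r2 1.56-fold. The lipid phosphatases split, as Inpp5d (SHIP1) fell 1.47-fold from 1627 ± 38.3 CPM while Inppl1 (SHIP2) rose 1.65-fold from 82.3 ± 1.34 CPM (SD, n = 3). Of phosphatases and inhibitors of Kit, 5 of 10 rose and 4 fell. Ptpn6 (SHP-1), which dephosphorylates Kit, fell 1.59-fold. The Ras inhibitors Spred1 and Spred2 moved oppositely, Spred1 falling 1.66-fold from 446 ± 7.21 CPM and Spred2 rising 2.99-fold from 14.3 ± 0.412 CPM (SD, n = 3). Socs1 rose 1.93-fold.

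**Figure D5:**
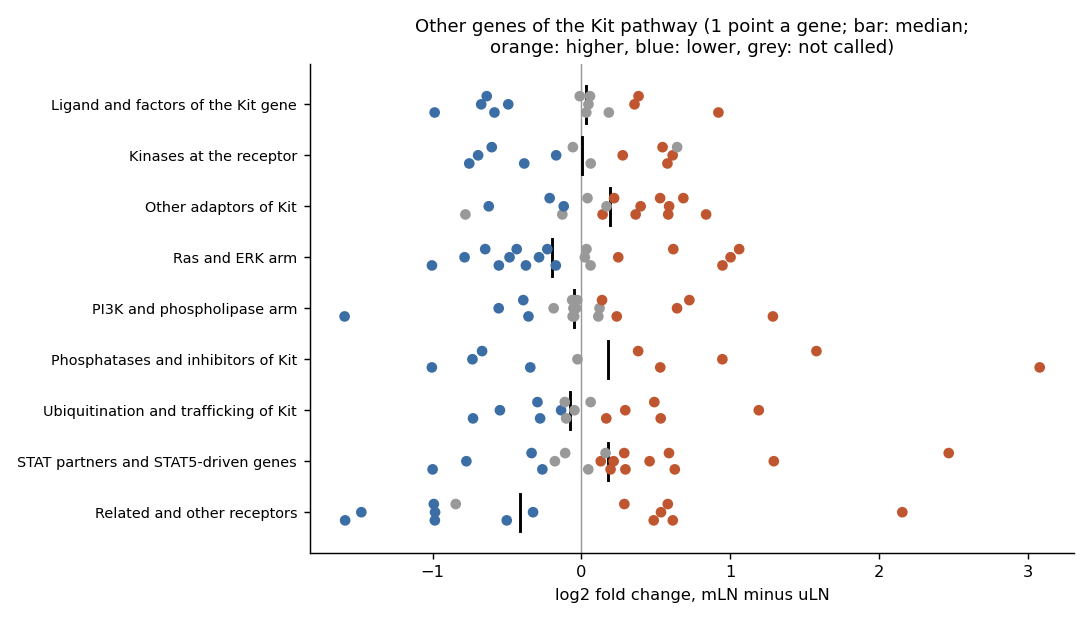
Log2 fold change (horizontal axis) of each tested gene in 9 lists of Kit pathway genes, 1 point a gene, orange for higher, blue for lower and grey for not called, with a bar at each median. Both colours appear in every list, and the medians run from -0.414 for related and other receptors to 0.194 for other adaptors.

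For receptor ubiquitination and trafficking, 5 of 14 rose and 5 fell. Sla, an adaptor that brings Cbl to receptors, rose 2.29-fold from 135 ± 5.12 to 309 ± 12.4 CPM (SD, n = 3). Sh3kbp1 (CIN85), which links Cbl to endocytosis, fell 1.66-fold and the endosomal sorting factor Hgs 1.46-fold, while the endophilin Sh3gl1 rose 1.45-fold. Cblc, the remaining Cbl family member, had 0 reads in uLN and 2 to 7 in mLN and was not tested.

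Of STAT partners and genes known to be driven by STAT5, 10 of 18 rose and 4 fell, with a median of 0.179. Cish, a STAT5 target that feeds back on cytokine receptors, rose 1.55-fold from 97.2 ± 3.65 CPM and the kinases Pim1 and Pim2 rose 1.504-fold and 2.45-fold. Socs3, better known as a STAT3 target, rose 5.54-fold from 7.29 ± 1.80 to 40.4 ± 2.05 CPM (SD, n = 3). Several of these genes answer to other factors as well. Lower in mLN were Myc by 2-fold, Osm by 1.71-fold, Stat6 by 1.26-fold and Mcl1 by 1.20-fold, of which only Myc passed the 1.5-fold test. With the coefficient of variation at 0.2, 4 genes of this list were called higher and 2 lower. STAT5 activity itself was not tested.

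Among related receptors and others that use the same partners, 6 of 14 rose and 7 fell. Csf2rb, the common beta chain for IL-3, IL-5 and GM-CSF, fell 1.98-fold from 5243 ± 49.4 CPM, and Csf2rb2, its mouse relative for IL-3, fell 3.01-fold from 9610 ± 139 CPM (SD, n = 3). These neighbouring genes are close copies with deposited counts that were not whole, so their split is uncertain. Csf2ra, the GM-CSF receptor alpha chain, fell 1.99-fold, and Pdgfrb, of the same receptor class as Kit, fell 2.79-fold from 17.5 ± 1.37 CPM. Of the 6 that rose, Il3ra, the IL-3 receptor alpha chain, went up 1.22-fold from a mean of 66.3 to 80.9 CPM. Insr, Il7r, Il9r and Il2rg rose 1.40-fold to 1.53-fold, and Epor is given further below.

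The genes with the profile nearest to Kit were found by the root mean square distance between mean-centred log2 CPM over the 6 libraries, among 9689 genes with at least 5 CPM. They were Madd, St8sia1, Lpcat2, Rpl31 and Nt5c, at distances of 0.05 log2 units each. Madd, an activator of Rab GTPases, had 309, 297 and 318 CPM in uLN and 132, 133 and 127 CPM in mLN, and Lpcat2, an enzyme that makes platelet-activating factor, fell 2.33-fold. The likeness is mostly the size of the fall between the groups, since libraries within a group differ little.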

How the data were processed

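The values deposited are estimated counts, 1 column for each library and 1 row for each gene. In each library 32.2% to 32.8% were fractional, and all were rounded for the tests. TopHat, cutadapt and FastQC with build GRCm38 are named in the submitters' processing notes. How alignments became counts, and whether strand was used, is not given in the sources used here. Of 17891 rows, 1 named no gene and was left out, and 26 symbols turned into dates were restored by gene ID.

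Counts of mLN were compared with uLN in edgeR 4.0.16 (R 4.3.3) with TMM scaling, the default expression filter (12706 genes kept), the quasi-likelihood test and Benjamini-Hochberg adjustment over all genes tested. The function glmTreat tested for changes past 1.5-fold. SE is the log2 fold change over the square root of F. Lengths came from GENCODE M21 and positions from RefSeq GRCm38.p6, in which 17764 genes matched by ID. Protein sequences were not used here.

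The members, lists and tests were chosen with earlier results of these data known. Named genes are the 9 members, up to 4 called genes of each list in the order of adjusted p, and the 5 genes nearest to Kit. Gata2, Kitl, Cblc, Sos2, the 4 genes of the STAT list that fell and the genes given to complete the receptor list were added after their values were seen. Each pair of libraries differed by more than counting error (median chi-square of at least 0.655 per gene, where counting error gives 0.455), so each was kept as a sample. Alternatives were other scalings, DESeq2 1.42.0, no filter, a replicate block, a fixed coefficient of variation and leaving out each library.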

Additional observations from a re-analysis of the deposited data

How the results depend on the processing

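Kit kept its direction and call under all 13 alternatives, with log2 fold changes from -1.33 to -1.28, and so did Cbl (1.06 to 1.19), Sh2b2 (1.39 to 1.70) and Sos1 (0.53 to 0.72). With the coefficient of variation set to 0.2, 1 member was called lower in place of 3, and the pathway lists held 25 higher and 24 lower in place of 52 and 47. Over all genes 2145 were then higher and 1913 lower, in place of 4219 and 4347. The members called past 1.5-fold stayed at 2 higher and 1 lower under every alternative run for that test. Other scalings moved the median of all genes by at most 0.0272 on the log2 scale. Replicates share numbers, but same-numbered libraries did not deviate together (r = 0.036, -0.133 and 0.009 over genes), and 1 of 6 libraries correlated best with its own number. With the replicate block 4 members were higher and 3 lower, Kit had a log2 fold change of -1.30, and 4122 genes were higher and 4263 lower over all. Per kb, the longest transcript in place of the union of exons left the order of the members as it was. In uLN, 34 to 38 reads of Sh2b2 limit how well its level there is known.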

Other observations

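A few genes of the pathway lists that the naming rule did not take had large changes, and were picked after their values were seen. Epor, the erythropoietin receptor, which signals through Jak2 and STAT5, rose 4.46-fold from 1.24 ± 0.334 to 5.54 ± 0.969 CPM (SD, n = 3), with 17 to 28 reads in a uLN library and 81 to 120 in an mLN library. Spry1, an inhibitor of Ras and ERK signalling, rose 8.46-fold from 0.341 ± 0.202 to 2.95 ± 0.361 CPM (SD, n = 3), from 3 to 10 reads in uLN to 47 to 58 in mLN. Dusp6, a phosphatase of ERK, fell 2.01-fold over the same libraries, from 85.5 to 42.6 CPM. ERK signalling itself was not tested. Lyl1, a relative of Tal1, fell 1.98-fold and was lowest in mLN replicate 3, at 150, 162 and 100 CPM in mLN against 270 to 276 CPM in uLN.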
